A study of Mus musculus with 6 samples.

Results

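The 7 genes that encode or mark the transcription factors of naive pluripotency were followed through the open chromatin of 3 mouse pluripotent cell states. They were Klf2, Klf4, Klf5, Tfcp2l1 (listed in the annotation under its older symbol Tcfcp2l1), Tbx3, Prdm14 and Zfp42 (also known as Rex1). Every peak that overlapped a stretch from 20 kb before to 20 kb after one of these genes was taken, with gene positions from GENCODE M1 on mm9. This gave 91 peaks, which merged into 43 regions of 65518 in the whole series, around 7 of 22225 protein-coding genes. A region is the stretch covered by peaks that overlap by at least 1 bp, whichever state they came from. The genes were chosen by name and not by a measured value, but with earlier results of these data known.

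Naive pluripotency is the state of the preimplantation epiblast, and in culture it is held by a network of transcription factors that reinforce each other's genes. In mouse embryonic stem cells (ESCs), LIF acts through Stat3 on genes such as Klf4 and Tfcp2l1, GSK3 inhibition relieves repression of others through Tcf7l1, and MEK inhibition protects factors such as Klf2. Prdm14 limits FGF receptor signalling and DNA methylation, Tbx3 is a T-box factor that also takes part in the choice of primitive endoderm, and Zfp42 is the marker whose loss is widely used to follow exit from the naive state. Several of these genes are controlled in ESCs by enhancers that lie outside their promoters, which is why the flanks were read together with the starts.

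The assay was ATAC-seq, whose transposase Tn5 inserts adapters into accessible DNA. ESCs of the J1 line (129SV strain) were grown in serum with LIF at 1000 units/mL, the GSK3 inhibitor CHIR99021 at 3 μM and the MEK inhibitor PD0325901 at 1 μM. D-EPSCs and L-EPSCs, expanded potential stem cells made from them by 2 published recipes, were both kept in LIF at 1000 units/mL and CHIR99021 at 3 μM. D-EPSC medium was based on N2B27 with knockout serum replacement, held dimethindene maleate and minocycline hydrochloride at 2 μM each and no PD0325901. L-EPSC medium was based on knockout serum replacement and held PD0325901 at 1 μM, A-419259 at 0.3 μM, XAV939 at 5 μM, JNK inhibitor VIII at 4 μM and SB203580 at 10 μM. All 3 states therefore had LIF and the GSK3 inhibitor, and MEK inhibition was shared by ESCs and L-EPSCs. All cells were of 1 line, and both EPSCs had been moved off feeders before the assay.

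Each state had 2 technical replicates, but its peaks were deposited as 1 list with positions and no height or score. A state therefore has 1 value for each quantity, with no replicate check, and no difference between lists was tested. The lists numbered 28965 peaks (ESC), 50225 (D-EPSC) and 46601 (L-EPSC), and the depth behind each list is unknown. A region without a peak is one where no peak was called, which is not the same as closed chromatin, and differences in depth and in chromatin cannot be told apart. All 5 genes that mark pluripotent cells in a list drawn up to check the labels had a D-EPSC and an L-EPSC peak at a start, and 4 of the 5 had an ESC peak there. Of 5 fibroblast genes, which would mark feeder cells, 2 had an ESC start peak, 4 a D-EPSC one and 1 an L-EPSC one, where the shares over all coding genes were 52.5%, 64.3% and 61.7%, and the part of other cells in the D-EPSC peaks was not tested. Of 3 trophoblast genes, 2 had a start peak in the ESC list and 3 in each EPSC list, and of 3 primitive endoderm genes none had one in the ESC list and 2 in each EPSC list.

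Sequences of 8 stretches are shown because they carry the main contrasts: the start of Zfp42 with a peak in every state, stretches at Prdm14 and Klf5 with a peak in both EPSC states and none in ESCs, stretches at Tbx3 and Zfp42 with a peak in ESCs and L-EPSCs and none in D-EPSCs, the ESC-only stretch before Tfcp2l1, and an intron of Tfcp2l1 with a peak in every state. All are plus-strand sequence of mm9 read 5′ to 3′, taken where the peaks of all lists named overlap. Each is cut to 300 bases or fewer. Capitals mark matches, on either strand, to consensus motifs: the octamer ATGCAAAT, the Klf motif CCACACCC, the GC box GGGCGGGG, the STAT motif TTCCNGGAA and the Tfcp2l1 motif, which is CCAG, any 6 bases, CCAG. The Klf and GC box matches before Zfp42 overlap.
Zfp42, before the start, all 3 states, chr8:44392364-44392663: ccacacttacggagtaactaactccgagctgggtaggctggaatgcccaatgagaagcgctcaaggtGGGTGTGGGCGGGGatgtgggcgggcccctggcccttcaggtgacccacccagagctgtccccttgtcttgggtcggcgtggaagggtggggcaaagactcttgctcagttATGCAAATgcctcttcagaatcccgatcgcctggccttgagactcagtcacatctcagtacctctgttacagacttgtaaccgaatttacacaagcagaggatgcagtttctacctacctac
Prdm14, before the start, both EPSC states, chr1:13117245-13117308: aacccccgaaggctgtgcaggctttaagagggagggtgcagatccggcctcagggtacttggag
Prdm14, downstream, both EPSC states, chr1:13084776-13085075: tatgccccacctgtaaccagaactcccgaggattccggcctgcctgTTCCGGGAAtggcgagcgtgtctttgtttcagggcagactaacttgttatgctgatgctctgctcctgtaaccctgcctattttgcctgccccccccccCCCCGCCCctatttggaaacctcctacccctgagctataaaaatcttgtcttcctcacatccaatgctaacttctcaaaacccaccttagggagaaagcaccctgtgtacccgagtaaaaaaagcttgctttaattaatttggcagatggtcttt
Klf5, downstream, both EPSC states, chr14:99720016-99720195: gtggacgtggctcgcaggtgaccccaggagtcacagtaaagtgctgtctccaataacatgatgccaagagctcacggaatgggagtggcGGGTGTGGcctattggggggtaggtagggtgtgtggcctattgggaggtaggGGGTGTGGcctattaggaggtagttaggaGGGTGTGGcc
Tbx3, upstream, ESC and L-EPSC, chr5:120106883-120107182: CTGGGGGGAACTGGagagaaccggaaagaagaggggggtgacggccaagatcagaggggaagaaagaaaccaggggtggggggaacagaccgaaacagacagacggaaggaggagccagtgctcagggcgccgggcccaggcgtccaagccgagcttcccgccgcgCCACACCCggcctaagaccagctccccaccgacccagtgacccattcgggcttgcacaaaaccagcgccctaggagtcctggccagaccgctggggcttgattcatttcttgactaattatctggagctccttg
Zfp42, downstream, ESC and L-EPSC, chr8:44374879-44375178: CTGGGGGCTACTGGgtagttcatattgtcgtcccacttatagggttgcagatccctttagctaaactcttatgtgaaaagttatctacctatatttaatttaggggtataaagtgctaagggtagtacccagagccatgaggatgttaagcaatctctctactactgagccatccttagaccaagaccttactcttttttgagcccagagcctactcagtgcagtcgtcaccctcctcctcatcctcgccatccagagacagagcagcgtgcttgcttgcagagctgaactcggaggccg
Tfcp2l1, before the start, ESC only, chr1:120523110-120523356: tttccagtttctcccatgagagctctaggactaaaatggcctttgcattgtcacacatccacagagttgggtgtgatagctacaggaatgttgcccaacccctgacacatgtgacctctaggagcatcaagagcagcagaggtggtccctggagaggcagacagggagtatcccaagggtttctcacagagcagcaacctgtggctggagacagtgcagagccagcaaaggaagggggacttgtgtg
Tfcp2l1, intron, all 3 states, chr1:120544655-120544954: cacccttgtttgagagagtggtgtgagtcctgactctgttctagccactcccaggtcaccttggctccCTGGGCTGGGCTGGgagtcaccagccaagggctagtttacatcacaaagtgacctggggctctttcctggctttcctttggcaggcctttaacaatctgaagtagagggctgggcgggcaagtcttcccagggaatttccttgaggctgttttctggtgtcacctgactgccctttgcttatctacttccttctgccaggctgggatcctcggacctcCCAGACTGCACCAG

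All 7 genes had a peak within 1000 bp of an annotated start in every list. Of the 22225 coding genes, 52.5% had such a peak in the ESC list, 64.3% had one in the D-EPSC list, 61.7% had one in the L-EPSC list, and 51.4% had one in all 3 lists. Within 500 bp, 6 of the 7 had one in the ESC list and 7 in each EPSC list. The lists differed at some starts as well as elsewhere. The 43 regions held 18 with a peak in all 3 lists, 8 with a peak in both EPSC lists only, 7 in the D-EPSC list only, 5 in the L-EPSC list only, 3 shared by ESCs and L-EPSCs, 1 shared by ESCs and D-EPSCs and 1 in the ESC list only.

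Read against all regions of the series, several class shares lay to one side of the background within 20 kb and to the other side in wider windows. Regions of all 3 lists made up 41.9% of the 43, against 33.2% of all regions, but 32.4% at 50 kb and 31.1% at 100 kb. Regions of both EPSC lists only made up 18.6%, against 18.4%, which is the background share. D-EPSC-only regions were 16.3% against 22.3%, and L-EPSC-only regions 11.6% against 15.8%, the latter class reaching 16.2% at 50 kb. ESC-only regions were 2.33% against 5.12%, a single region, and 6.76% at 50 kb (5 of 74) and 9.43% at 100 kb (10 of 106). The class of ESCs and L-EPSCs without D-EPSCs took 6.98% against 2.92% (4.05% at 50 kb and 3.77% at 100 kb), and that of ESCs and D-EPSCs 2.33% against 2.3%, so that these shares rest on 3 regions and on 1. Altogether 20 of the 43 regions (46.5%) had no ESC peak, against 56.5% of all regions, and 13 (30.2%) had a peak in a single list, against 43.2%. At 50 kb and 100 kb the share without an ESC peak was 55.4% and 53.8%, near the background, and the share of a single list was 44.6% and 47.2%, above it. Shares from 43 regions move by 2.33 percentage points with each region, regions around 1 gene are not independent of each other, and nothing here sets the naive genes apart from other genes.

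**Figure D1:**
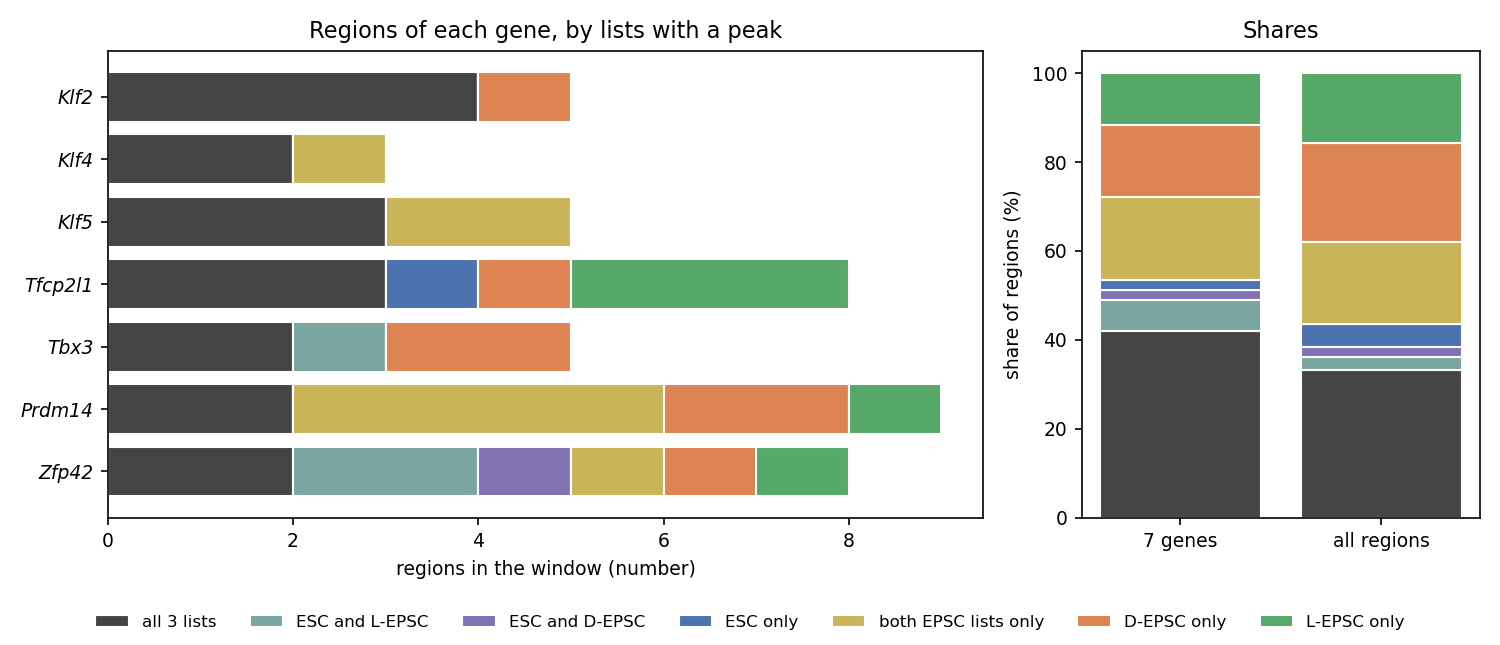
Left, number of regions around each gene, coloured by the lists that had a peak in the region. Right, the same classes as a share of the 43 regions of the 7 genes and of all 65518 regions, where regions of all 3 lists made up 41.9% and 33.2%.

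By list, the windows held 23 ESC peaks, 34 D-EPSC peaks and 34 L-EPSC peaks. Both EPSC lists thus had 1.48 times as many peaks there as the ESC list, while over the genome the ratios were 1.73 and 1.61. The bases covered were 11416 bp for ESCs, 17862 bp for D-EPSCs and 19224 bp for L-EPSCs, or 1.56 and 1.68 times the ESC value, against 1.86 and 1.67 over the genome. The EPSC lists thus exceeded the ESC list by less around the naive genes than over the genome, except in L-EPSC bases, where the excess was about the same. This direction turned when each list was held to its widest 28965 peaks: the windows then held 23, 25 and 28 peaks, or 1.09 and 1.22 times the ESC number, where the whole lists are equal in number. The median peak width was 494 bp for ESCs (95% order-statistic interval 333 to 563), 487 bp for D-EPSCs (335 to 625) and 515.5 bp for L-EPSCs (333 to 701), against 369, 364 and 358 bp for all peaks. Each interval holds the median of all peaks of its list. The intervals reflect the spread of widths between peaks of a list, not between replicates. Peaks around the same gene are not independent, so the intervals are not a test. The windows were also dense, with a median of 5 regions for the 7 genes and 3 for all coding genes (quartiles 1 to 6), and 9.25 regions per 100 kb of window (range 6.62 to 16.8) against 4.67 (quartiles 1.9 to 8.4).

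**Figure D2:**
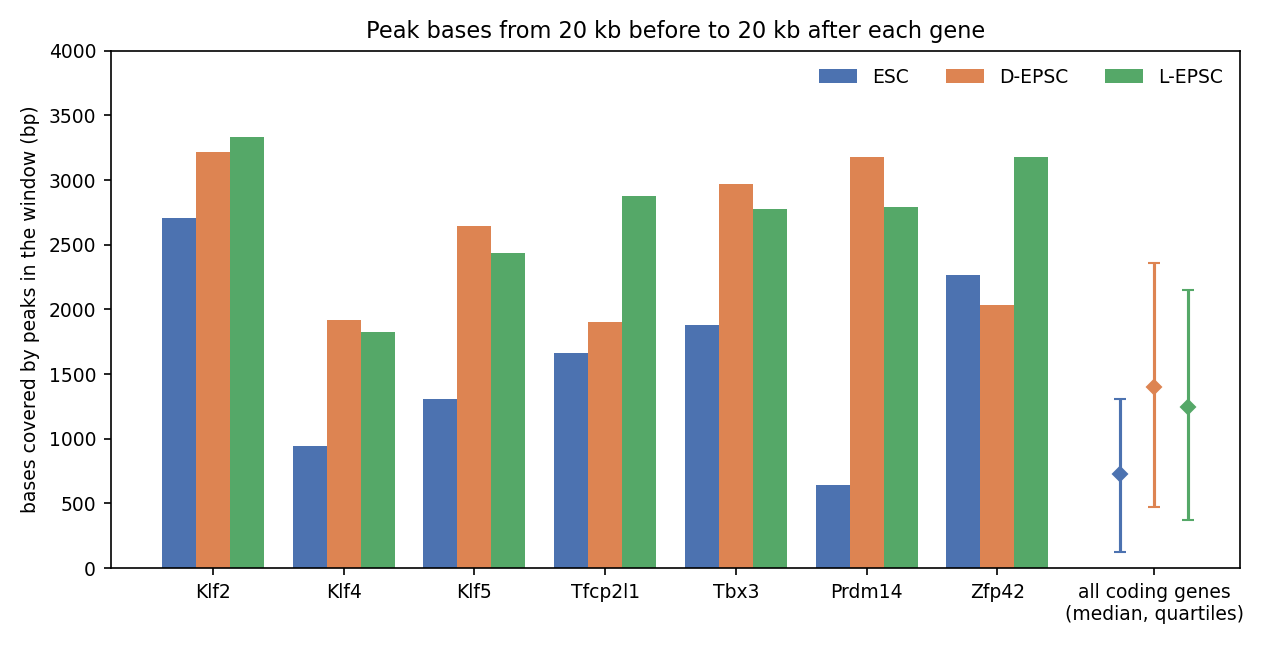
Bases covered by peaks of each list (bp) in the window of each gene, as bars, with the median and quartiles over the windows of all 22225 coding genes as diamonds and whiskers. Prdm14 had the fewest ESC bases of the 7 genes, 644, and 3180 for D-EPSCs, while Zfp42 had more in ESCs, 2263, than in D-EPSCs, 2032.

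The map of peaks around each gene shows where the classes lay. Of 10 regions at a start (within 1000 bp), 8 had a peak in all 3 lists, and the other two had peaks in both EPSC lists. Of 9 regions inside a gene and away from its starts, 3 had a peak in all 3 lists. Of 11 regions before the gene the number was 3, and of 13 after it 4. Over the whole series, 66.1% of regions at a coding start were in all 3 lists, against 19.8% of those elsewhere in a coding gene and 25.6% of those within 20 kb of one, so that starts were the most shared places in general. Each of the 7 genes had at least 1 region that lacked an ESC peak. Regions of both EPSC lists only were found at 4 of them, Klf4, Klf5, Prdm14 and Zfp42. The shares of all coding genes with such regions were not computed. Both counts depended on narrow peaks. With each list held to as many of its widest peaks as the ESC list has, Klf2 had no region without an ESC peak. Prdm14 was then the only one of the 7 genes with regions of both EPSC lists only. For 39 of the 43 regions the nearest coding start was that of the naive gene itself. The exceptions were 2 regions upstream of Klf2, nearest to Gm10282, and 2 upstream of Prdm14 that lie in Ncoa2.

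**Figure D3:**
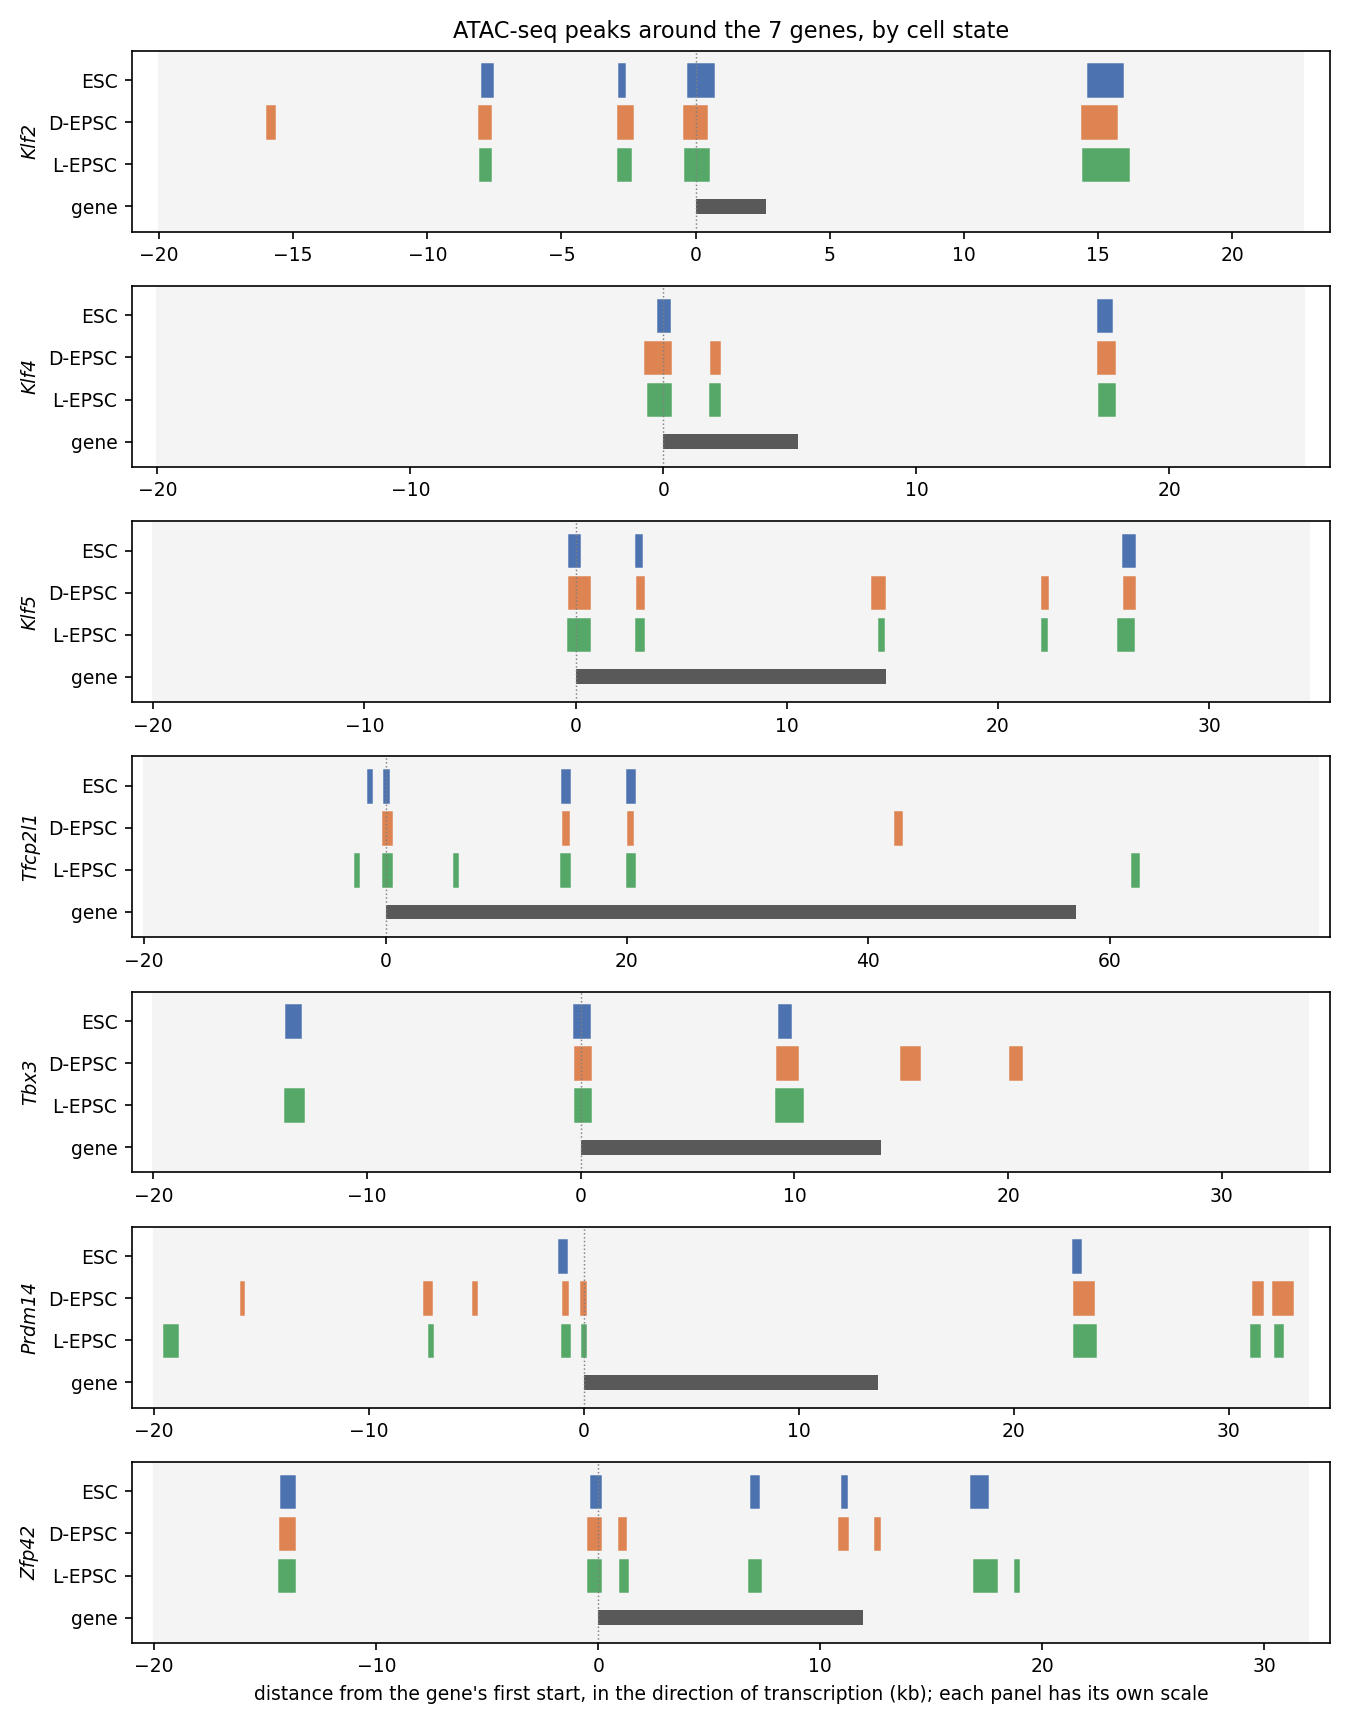
Peaks of the 3 lists around each gene, by distance from the gene's first start in the direction of transcription (kb), with the gene as a dark bar and the window shaded. Every gene has a peak of every list within 1000 bp of a start, with the ESC peak of Prdm14 upstream of the start itself. No peak found in a single list lies at a start.

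Among the Krüppel-like factors, which support self-renewal redundantly, Klf2 (chr8:74842932-74845555, plus strand) had 5 regions, and 4 of them had a peak in all 3 lists. The peak over its start and a coding exon was 929 bp wide for ESCs, 788 bp for D-EPSCs and 848 bp for L-EPSCs. The widest region of all 43, chr8:74857327-74859025, lay between genes 15.2 kb downstream of the start, with widths of 1261 bp for ESCs, 1255 bp for D-EPSCs and 1673 bp for L-EPSCs. This distal region was wider than the start peak in each state. Upstream, a region 2.6 kb from the start was 175 bp for ESCs, 500 bp for D-EPSCs and 431 bp for L-EPSCs, and one at 7.8 kb was 343, 423 and 385 bp. The remaining region, 15.9 kb upstream and 251 bp wide, was in the D-EPSC list only, with the nearest L-EPSC peak 7679 bp away. In shared bases Klf2 was the most alike of the 7 genes between ESCs and L-EPSCs and between ESCs and D-EPSCs, with a Jaccard index (bases in both lists over bases in either) of 0.686 and 0.566.

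Klf4 (chr4:55540013-55545347, minus strand), a target of LIF signalling and one of the reprogramming factors, had 3 regions. Its start peak was 424 bp wide for ESCs, 990 bp for D-EPSCs and 860 bp for L-EPSCs. Both EPSC peaks thus reached further than the ESC peak, which lay inside both of them. A region in a coding exon 2.0 kb into the gene (chr4:55543161-55543515) had a peak of 302 bp for D-EPSCs and 355 bp for L-EPSCs, 1607 bp from any ESC peak. With lists held to their widest 28965 peaks, no Klf4 region was in both EPSC lists only. The region 17.5 kb downstream, chr4:55527534-55528176, was nearly equal in the 3 lists, at 520, 625 and 609 bp. D-EPSC and L-EPSC peaks had a Jaccard index of 0.882 here, the highest of any pair of lists at the 7 genes, against 0.492 for ESCs and D-EPSCs.

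The enhancers of Klf4 known from ESCs lie further downstream than 20 kb, so regions up to 100 kb from the gene were listed as well, a choice made after the data had been seen. Of 6 further regions nearest to the Klf4 start, 5 were downstream. The region 54.7 kb downstream had peaks of 882 bp for ESCs, 864 bp for D-EPSCs and 947 bp for L-EPSCs, and that at 68.1 kb had 521, 737 and 587 bp. These 2 distal regions had a peak in every state. Around them, 3 regions had D-EPSC and L-EPSC peaks and no ESC peak, at 51.6 kb (735 bp for D-EPSCs and 233 bp for L-EPSCs), at 56.9 kb (310 and 367 bp) and at 81.2 kb (194 and 261 bp). The remaining one, 167 bp wide and 51.4 kb upstream, was in the D-EPSC list only.

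**Figure D4:**
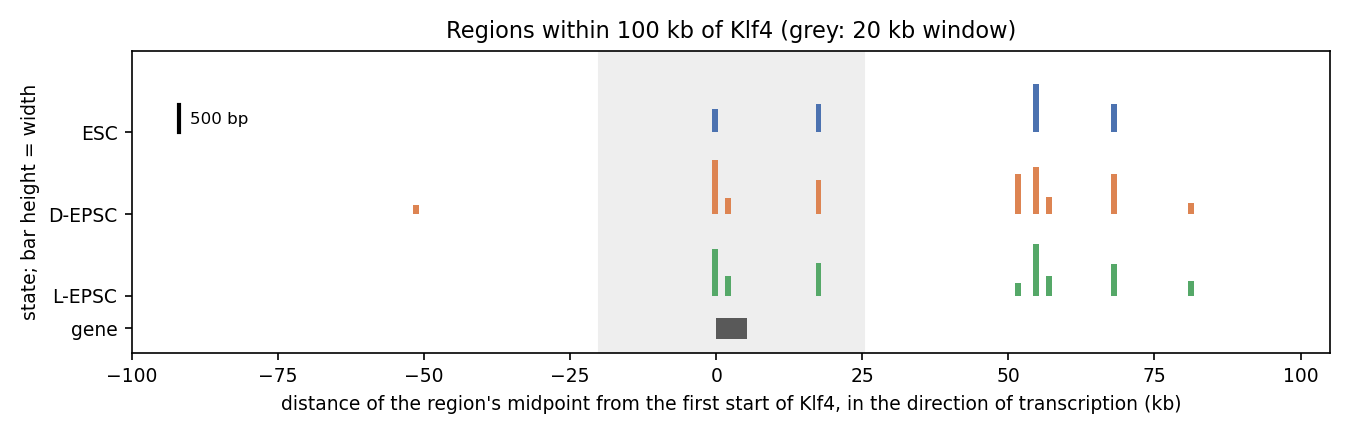
Regions within 100 kb of Klf4 that are nearest to its start, by distance of the midpoint from the start (kb). Bar height is the width of the peak in each state (scale bar, 500 bp). Downstream of the shaded window, ESC bars stand at 2 of the 5 regions and EPSC bars at all 5, where 56.5% of all regions of the series had no ESC peak.

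Klf5 (chr14:99697910-99712624, plus strand), which acts with Klf2 and Klf4 and is also needed for trophectoderm, had 5 regions and no region of a single list. Its start peak was 494 bp wide for ESCs, 971 bp for D-EPSCs and 986 bp for L-EPSCs. The left edges of the 3 peaks were close to each other, and the EPSC peaks ran on further into the gene. A peak in a coding exon at 3.0 kb was 260, 313 and 333 bp in the same order. The region at 26.1 kb, 555 bp for ESCs, 501 bp for D-EPSCs and 745 bp for L-EPSCs, was present in all states. Between them were 2 regions found in both EPSC lists only. One lay at 14.3 kb in an intron, with 600 bp for D-EPSCs and 193 bp for L-EPSCs. The other, chr14:99719992-99720251 at 22.2 kb, had 260 and 180 bp and holds the 3 Klf motif matches printed above, while no ESC peak lay closer than 3565 bp. With lists held to their widest 28965 peaks, neither was in both EPSC lists.

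Tfcp2l1 (chr1:120524522-120581744, plus strand), a grainyhead-family factor downstream of LIF, had the only ESC-only region. It had 8 regions. At the start the peak was 352 bp for ESCs, 661 bp for D-EPSCs and 637 bp for L-EPSCs. Intron regions at 14.9 kb and 20.3 kb had a peak in every list, with widths of 503 bp for ESCs, 421 bp for D-EPSCs and 703 bp for L-EPSCs at the first, and 563, 345 and 544 bp at the second. In both, the D-EPSC peak was the narrowest of the 3, the reverse of the start. The ESC-only region, chr1:120523110-120523356, was 247 bp wide and lay 1.3 kb upstream, 876 bp from an L-EPSC-only peak of 219 bp at 2.4 kb upstream and 967 bp from the nearest D-EPSC peak, which was that of the start. Other peaks of a single list were L-EPSC peaks at 5.8 kb in an intron (299 bp) and at 62.1 kb past the gene (478 bp), and a D-EPSC peak at 42.5 kb in an intron (474 bp). The gene had no region of both EPSC lists only, and its Jaccard indices of 0.457 (ESC with D-EPSC), 0.443 (ESC with L-EPSC) and 0.415 (both EPSCs) were close together.

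Tbx3 (chr5:120120678-120134733, plus strand) had 5 regions. The peak at its first start was 714 bp for ESCs, 687 bp for D-EPSCs and 701 bp for L-EPSCs, nearly the same width in each state. A region at 9.7 kb, over the annotated starts of shorter transcripts and a coding exon, was 510 bp for ESCs, 915 bp for D-EPSCs and 1231 bp for L-EPSCs. The states differed in the flanks. A region 13.4 kb upstream, chr5:120106836-120107681, had a peak of 659 bp for ESCs and 846 bp for L-EPSCs, and the nearest D-EPSC peak was 12729 bp away. It lies in the genes Gm2301 and Gm16064. Downstream, in Gm16065, the D-EPSC list alone had peaks of 859 bp at 15.4 kb and 509 bp at 20.4 kb. The first of these was the widest region of a single list at any of the 7 genes, and the nearest L-EPSC peak was 4636 bp away. The Jaccard index of ESC peaks was 0.314 with D-EPSC peaks and 0.639 with L-EPSC peaks, and that of both EPSCs was 0.386.

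Prdm14 (chr1:13103538-13117244, minus strand), a zinc finger factor with a PR domain, had the largest difference between ESC and EPSC lists among the 7 genes. It had 2 ESC peaks, 8 D-EPSC peaks and 7 L-EPSC peaks, covering 644 bp, 3180 bp and 2792 bp. At its start, both EPSC lists had a narrow peak in a region with its midpoint at -32 bp, 178 bp wide in D-EPSCs and 123 bp for L-EPSCs, where ESCs had none. All 3 lists had a peak just upstream, in a region with its midpoint at -905 bp, of 311 bp for ESCs, 201 bp for D-EPSCs and 316 bp for L-EPSCs. The ESC peak ended at -812 bp, so that Prdm14 had an ESC start peak within 1000 bp and none within 500 bp. This depended on narrow peaks: among the widest 28965 peaks of each list, the ESC list kept a start peak at all 7 genes and the D-EPSC list at 6, since both D-EPSC peaks at the Prdm14 start were too narrow to be kept. The other shared region at 23.3 kb, past the end of the gene (chr1:13093462-13094470), was 333 bp for ESCs, 905 bp for D-EPSCs and 973 bp for L-EPSCs.

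Beyond that region, Prdm14 had peaks in both EPSC lists only at 31.3 kb (423 bp for D-EPSCs and 346 bp for L-EPSCs) and at 32.5 kb (855 and 312 bp), the second at chr1:13084309-13085163. The nearest ESC peaks to these were 7950 bp and 8800 bp away. Upstream, a region of both EPSC lists at 7.2 kb had 340 and 121 bp. Narrow D-EPSC peaks of 159 bp at 5.1 kb and 119 bp at 15.9 kb, and an L-EPSC peak of 601 bp at 19.2 kb, were each in a single list. Those of 119 bp and 601 bp lie in Ncoa2, whose start is nearest to them, and are counted in the totals of Prdm14. Of its 9 regions, 4 were thus in both EPSC lists only, a class that held 18.4% of all regions of the series. These are 4 of the 8 such regions at all 7 genes. With each list held to its widest 28965 peaks, 2 such regions were left at all 7 genes, both at Prdm14, and regions without an ESC peak fell from 20 to 12, of which 4 were at Prdm14. Under that limit, 5.71% of the members' regions were in both EPSC lists only, against 9.03% of all regions, and 34.3% had no ESC peak, against 35.9%. The Jaccard index of ESC peaks was 0.131 with D-EPSC peaks and 0.166 with L-EPSC peaks, the lowest at any of the genes, and 0.475 for both EPSCs.

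Zfp42 (chr8:44380422-44392363, minus strand), a zinc finger protein related to Yy1, had every class of region but the ESC-only one. Its start peak was 433 bp for ESCs, 559 bp for D-EPSCs and 544 bp for L-EPSCs, and a region 14.0 kb upstream likewise had a peak in every list, of 598, 613 and 698 bp. A region of an intron at 1.1 kb had a peak of 309 bp for D-EPSCs and 304 bp for L-EPSCs, 824 bp from the ESC peak of the start. Regions with an ESC and an L-EPSC peak and no D-EPSC peak lay at 7.0 kb in an intron (307 bp and 487 bp) and at 17.4 kb past the gene (723 bp and 1000 bp). The latter, chr8:44374432-44375570, was the widest of the regions that lacked a peak in at least 1 list, with the nearest D-EPSC peak 4132 bp away. A coding exon at 11.0 kb had a peak of 202 bp for ESCs and 335 bp for D-EPSCs and none in L-EPSCs. Short peaks of a single list lay at 12.6 kb (216 bp, D-EPSCs) and 18.8 kb (143 bp, L-EPSCs). Zfp42 was the only gene of the 7 with fewer bases in D-EPSCs (2032 bp) than in ESCs (2263 bp), and L-EPSCs had 3176 bp.

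The 3 regions shared by ESCs and L-EPSCs and without a D-EPSC peak thus lay at Tbx3 and Zfp42. Their median width was 846 bp, against 388 bp for the 1915 regions of this class in the series. ESC and L-EPSC media both held PD0325901 and D-EPSC medium did not, but the media also differed in their base and in 6 other compounds, and the parts of these cannot be told apart. In the whole set of 7 genes, ESC and L-EPSC peaks had a Jaccard index of 0.503 and ESC and D-EPSC peaks one of 0.392, against 0.389 and 0.352 over the genome. For both EPSC lists it was 0.539, against 0.489. In each pair the peaks within 20 kb of the naive genes coincided more than peaks in general, and the order of the 3 pairs was the same. Peaks there also had larger median widths than peaks in general, and the part of width was not tested. The index was not computed for wider windows. In those, the share of regions of all 3 lists was 32.4% at 50 kb and 31.1% at 100 kb, against 33.2% of all regions.

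Where all 3 lists had a peak, its width could be followed from state to state. In the 18 regions of this kind the L-EPSC peak was wider than the ESC peak in 15 and the D-EPSC peak was wider in 11. The median ratio of L-EPSC to ESC width was 1.3 (interval 1.12 to 2.0) and that of D-EPSC to ESC width 1.2 (0.903 to 1.88). Over all 21752 such regions the medians were 1.22 and 1.26, with 70.2% and 72.1% of regions wider than in ESCs, against 83.3% and 61.1% around the naive genes. The L-EPSC peak was wider than the D-EPSC peak in 12 of the 18, with a median ratio of 1.07 (0.973 to 1.35), while over the genome it was wider in 45.6%, with a median of 0.974. Single ratios to the ESC width ran from 0.613 to 2.86 for D-EPSCs and from 0.913 to 2.92 for L-EPSCs. The largest widenings were at the Klf2 region 2.6 kb upstream for D-EPSCs and at the Prdm14 region 23.3 kb downstream for L-EPSCs. The intervals treat the 18 regions as independent, which those around the same gene are not, and no difference in width was tested. Width depends on depth and on the caller as well as on the chromatin, and these cannot be told apart.

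**Figure D5:**
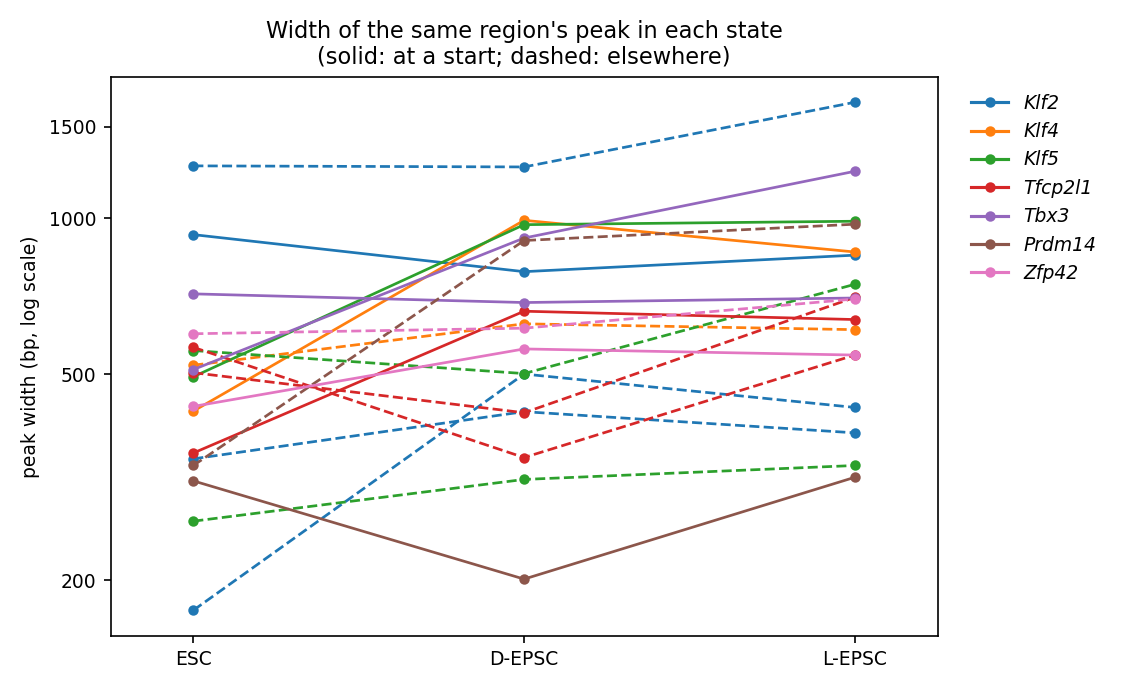
Width of the peak in each state (bp, log scale) for the 18 regions with a peak in all 3 lists, coloured by gene, with solid lines for regions at a start and dashed lines for others. In 15 regions the L-EPSC point lies above the ESC point, and the intron regions of Tfcp2l1 dip in D-EPSCs.

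Regions are the union of the peaks in them, so regions of more lists are wider by construction. The 18 regions of all 3 lists had a median of 700.5 bp (720 bp in the series), the 8 of both EPSC lists only 363.5 bp (408 bp), the 3 of ESCs and L-EPSCs 846 bp (388 bp), the 7 of D-EPSCs only 251 bp (221 bp) and the 5 of L-EPSCs only 299 bp (210 bp). GC content in the 400 bp around the midpoint had a median of 51.2% over the 43 regions (range 42.5 to 74.2), against 52.5% over all regions. It was highest at the starts of Klf4, at 74.2%, and Klf5, at 72.8%. The regions of all 3 lists had a median of 54.4% (57.8% in the series), and those of both EPSC lists only 50.9% (53.2%). The region 17.5 kb downstream of Klf4 was also GC-rich, at 68.2%, while the wide one 15.2 kb downstream of Klf2 had 43.8%.

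The same 400 bp were searched, without mismatch and on both strands, for 8 consensus motifs of factors of this network. The Klf motif CCACACCC was in 6 of the 43 regions (14.0%), against 6.55% of all regions, at Klf4, Klf5 and Zfp42. The octamer ATGCAAAT, bound by Oct4 and its relatives, was in 3 (6.98% against 2.85%), at Klf2, Tfcp2l1 and Zfp42. The Tfcp2l1 motif was in 3 (6.98% against 6.38%), and 1 of these, in the intron of Tfcp2l1 itself at 20.3 kb, held 2 matches. The STAT motif TTCCNGGAA was in 1 (2.33% against 1.51%), the Prdm14 region at 32.5 kb that had no ESC peak. The others were near their background: AAGGTCA, of orphan receptors such as Esrrb, in 4 (9.3% against 9.01%), CATTGTT, of Sox factors, in 3 (6.98% against 5.52%), CTTTGAT, of TCF/LEF factors, in 2 (4.65% against 4.88%), and the GC box GGGCGGGG in 6 (14.0% against 12.6%). The matches before Zfp42 are those in the first sequence above, with an octamer, a Klf motif and a GC box within 300 bases. Matches in the printed stretches that lie outside the central 400 bp, such as those at Tbx3, are not in these counts. A match to these letters is not a bound site, and the counts are too small to set the genes apart.

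Other genes of the pathway were read in the same way, from lists drawn up with earlier results of these data known. Of 18 further genes of the naive network, 12 had an ESC start peak, 14 a D-EPSC one, 14 an L-EPSC one and 12 in all 3 lists. Nanog and Nr0b1 had one in both EPSC lists and not in ESCs. Of their 125 regions, 39.2% were in all 3 lists, 23.2% in both EPSC lists only, 6.4% in ESCs and L-EPSCs, and 47.2% had no ESC peak, close to the 46.5% of the 7 genes. Of 11 genes of the formative and primed states, such as Otx2 and Pou3f1, 6 had an ESC start peak, 11 a D-EPSC one and 9 an L-EPSC one. In their 71 regions 28.2% were in all 3 lists and 66.2% had no ESC peak. Of 14 other Klf genes, 10 had an ESC start peak, 13 a D-EPSC one and 12 an L-EPSC one, with 38.8% of 80 regions in all 3 lists and 53.8% without an ESC peak. Of 7 relatives of Tbx3, Prdm14 and Tfcp2l1, 4 had an ESC start peak, 7 a D-EPSC one and 5 an L-EPSC one, with 27.1% and 60.4%. Over all coding genes, 52.5% had an ESC start peak, 64.3% a D-EPSC one, 61.7% an L-EPSC one and 51.4% one in all 3 lists. Of all regions of the series, 33.2% were in all 3 lists and 56.5% had no ESC peak. Those of both EPSC lists only made up 18.4%, and those of ESCs and L-EPSCs 2.92%. The shares of the gene lists are for 20 kb windows, and no difference between the lists was tested. The 46.5% of the 7 genes was 55.4% at 50 kb and 53.8% at 100 kb, against a background of 56.5%, and wider windows were not computed for the other lists.

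The coding gene most like each member was found by the Bray-Curtis similarity of the numbers of regions in the 7 classes of lists, with ties settled by the similarity of bases per list, and with no replicate behind it. For Klf2 it was Creld1, for Klf4 Pdzd3, for Klf5 Tbc1d10c, for Tfcp2l1 Wasf2, for Tbx3 Sfrs18 and for Prdm14 Btn2a2, each with a similarity of 1.0 in classes and between 0.919 and 0.99 in bases. For Zfp42 it was Eps8l2, at 0.933 and 0.884. The number of genes tied on classes was 353 for Klf4, 83 for Klf5, 71 for Klf2 and 12 for Tbx3, but 3 for Prdm14, 2 for Zfp42 and 1 for Tfcp2l1. The patterns of the Klf genes were therefore common in these lists, those of Prdm14 and Tfcp2l1 had few equals, and for Zfp42 no coding gene had the same counts. Genes with more regions have more ways to differ.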

How the data were processed

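The authors prepared 6 ATAC-seq libraries, 2 technical replicates for each of ESCs, D-EPSCs and L-EPSCs. Per their methods and processing notes, reads were trimmed with Trim Galore 0.6.3, aligned to mm9 with Bowtie2 2.3.5, filtered with SAMtools 1.10 and called with MACS at default settings. The deposited values are peak positions, with a chromosome, start, end and name in 4 columns and no score or other measure. How replicates were combined, and whether duplicates were removed or cut sites shifted for Tn5, is not given in the sources used here. Duplicates and depth would change which weak peaks were called, and a shift would move edges by a few bases.

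Starts were taken as counted from 0 and printed from 1. Peaks on the 19 autosomes, X and Y were merged into regions where at least 1 bp was shared. Genes and sequence came from GENCODE M1 on NCBIM37, the assembly of mm9. All 7 members are named, each with its start peaks, widest region and the regions absent from a list. Likeness was computed over genes with at least 3 regions. Regions were classed by the lists with a peak, with the 7 possible classes. Intervals are 95% order-statistic intervals. The members, lists and alternatives were chosen with earlier results of these data known. Alternatives were windows of 10, 50 and 100 kb, a distance to starts of 500 bp or 2.5 kb, peaks of at least 300 bp, the 28965 widest peaks of each list, a merging overlap of 100 bp, and only peaks nearest to the member's start. Python 3.11.15, numpy 2.4.6, pandas 2.3.3, scipy 1.17.1 and matplotlib 3.10.9 were used, and scripts were tested on simulated data.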

Additional observations from a re-analysis of the deposited data

How the results depend on the processing

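Of 65 recomputed main results, 51 moved by less than 1.5 times and 14 moved by more. Most that moved followed the window: at 50 kb the 7 genes had 74 regions, 55 D-EPSC peaks, 52 L-EPSC peaks, 41 regions without an ESC peak and 13 of both EPSC lists only. At 100 kb, a width chosen after seeing the data, they had 106 regions, 49 ESC, 76 D-EPSC and 72 L-EPSC peaks, 57 regions without an ESC peak, 17 of both EPSC lists only and 33 of all 3 lists. When every list was held to its widest 28965 peaks, regions without an ESC peak fell from 20 to 12 and those of both EPSC lists only from 8 to 2, or 34.3% and 5.71% of regions, where all regions had 35.9% and 9.03%. With peaks of at least 300 bp they were 14 and 6. Class shares read against all regions depended on the window: those of all 3 lists went from 41.9% to 32.4% and 31.1% at 50 and 100 kb (33.2% of all regions), of a single list from 30.2% to 44.6% and 47.2% (43.2%), and of ESCs only from 2.33% to 6.76% and 9.43% (5.12%), so each crossed its background. Regions without an ESC peak went from 46.5% to 55.4% and 53.8% (56.5%). Of 102 recomputed smaller results, such as the regions of single genes, 72 moved by no more than 1.5 times and 30 by more. No paired analysis was possible because each state has 1 list without values per replicate, so that leaving out a replicate was likewise not possible. The lists have no scores, so a stricter threshold could only be stood in for by width, and the unknown depth limits what an absent peak can show.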

Other observations

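Beyond 20 kb and up to 100 kb from the genes, a distance chosen after seeing the data, only regions whose nearest coding start was that of a naive gene were counted, so the numbers depend on how close other genes lie. Tbx3 had 12 of them, with 6 in the L-EPSC list only and 1 in all 3 lists, where these classes held 15.8% and 33.2% of all regions. Klf5 had 8, with 2 in all 3 lists and 2 in the ESC list only (5.12% of all regions). Zfp42 had 5, with 3 in both EPSC lists only (18.4% of all regions). Tfcp2l1 had 5, of which 2 were in all 3 lists, and Klf2 and Prdm14 had 2 each. These are counts from 1 list per state, and none of the differences was tested.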
